A study of Homo sapiens with 8 samples.

Results

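The histone chaperone gene ASF1A stood lower in stomach cancer cells treated with siRNA against TRIM44, and 9 related genes were followed beside it: the histone chaperones and assembly factors ASF1B, CHAF1A, CHAF1B, NASP, HIRA, CABIN1 and DAXX, and the regulators of histone messenger RNA SLBP and NPAT. They were taken as every probe set annotated with exactly 1 gene symbol, where that symbol was one of these names, which gave 11 probe sets of 10 genes out of 19158 probe sets of 18404 genes. DAXX had 2 probe sets and every other gene had 1. ASF1A was chosen by its log2 levels on these same arrays, lower with TRIM44 siRNA than with negative siRNA, so its values are given as a description, without a test. The other 9 genes were taken for their role beside it.

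The cells were HSC39, an established line of human gastric signet ring carcinoma, and the study asked what changes in them when TRIM44, a tripartite motif protein with a ubiquitin-binding zinc finger, is depleted. The arrays fall into 3 groups: 2 of cells given TRIM44 siRNA 7, 2 of cells given TRIM44 siRNA 9, and 4 of cells given the All stars negative siRNA. The protocol gives 100 nM of siRNA (written nm) and 48 h, and its text names TRIM44 siRNA alone, also for the negative samples. Each siRNA lowers RNA only for a time and in part, a single cell line was used, and the labels do not give the siRNA sequences. The series counts both reagents as 1 condition with 4 replicates and calls them biological. Nothing else says that they were separate cultures, so the p-values reflect only how these samples vary among themselves, and that variation may be technical. In RNA from whole cultures, less RNA per cell and fewer cells that express a gene cannot be told apart.

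Histones are small basic proteins around which DNA is wound, and free histones are toxic, so chaperones escort them from synthesis to DNA. ASF1A and ASF1B are paralogs that hold a dimer of histones H3 and H4 and pass it on along 2 routes. The CAF-1 complex, with CHAF1A and CHAF1B, deposits H3 and H4 behind the replication fork. The HIRA complex, with CABIN1, places the variant histone H3.3 independently of DNA replication, and DAXX places H3.3 with its partner ATRX in silent repeats. NASP keeps a soluble reserve of H3 and H4. NPAT switches on the clustered histone genes at the start of S phase, and SLBP binds the stem-loop that ends their messenger RNA in place of a poly(A) tail.

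The region around the start site is shown for both ASF1 paralogs, because their levels differed in order over the 3 groups. Sequences are from RefSeq (GRCh38.p14), each with 250 bases before and 50 after the start of the gene, 5′ to 3′ on the strand of the gene. Capitals mark matches, on either strand, to CCAAT (the CCAAT box, which reads ATTGG on the other strand) and TTTGAA (the CHR element found in cell cycle genes). TTTNNCGC, a pattern of E2F sites, was also searched on both strands. No match overlaps another in these windows.
ASF1A, chr6:118893902-118894201, plus strand:
ASF1A: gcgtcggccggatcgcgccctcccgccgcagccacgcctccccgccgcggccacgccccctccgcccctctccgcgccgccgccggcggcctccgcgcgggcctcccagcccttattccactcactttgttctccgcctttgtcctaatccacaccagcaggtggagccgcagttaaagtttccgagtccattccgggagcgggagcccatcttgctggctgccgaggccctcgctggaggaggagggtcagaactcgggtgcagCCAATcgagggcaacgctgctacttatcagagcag
ASF1B, chr19:14136540-14136839, minus strand:
ASF1B: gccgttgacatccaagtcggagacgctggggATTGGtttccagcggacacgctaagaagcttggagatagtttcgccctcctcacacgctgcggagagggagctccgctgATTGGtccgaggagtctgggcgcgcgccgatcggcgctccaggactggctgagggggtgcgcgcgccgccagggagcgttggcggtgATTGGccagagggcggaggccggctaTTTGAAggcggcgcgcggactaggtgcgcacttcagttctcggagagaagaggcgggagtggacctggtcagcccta

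The ASF1A window holds 1 match to CCAAT, which starts 15 bases after the start site. The ASF1B window holds 3 matches to CCAAT, on the other strand, at 219, 140 and 53 bases before the start site, and 1 match to TTTGAA at 27 bases before it. TTTNNCGC is in neither. Of the 35116 windows in the table, 34.6% hold CCAAT, 15.2% hold TTTGAA and 6.89% hold TTTNNCGC. A window was found for 9 of the 10 genes, DAXX being the gene without one. CCAAT is in 6 of these 9 windows, with 4 matches in CHAF1A, 2 each in CABIN1 and NPAT and 1 in NASP. TTTGAA is in 2 windows, of ASF1B and CABIN1, and TTTNNCGC is in 1, of HIRA. These matches are letters in a window and were not tested as binding sites.

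Values are log2 levels as the authors deposited them, so differences are on the log2 scale. TRIM44 itself stood at 10.85 and 11.27 with siRNA 7 and at 11.10 and 11.14 with siRNA 9, against 11.91, 12.02, 11.91 and 11.77 with negative siRNA. It fell by 0.84 with siRNA 7 (limma adjusted p = 0.0405) and fell by 0.78 with siRNA 9 (limma adjusted p = 0.0155). With siRNA 7 that call ended without negative array 1, 3 or 4, siRNA 7 array 1 or either siRNA 9 array, and with siRNA 9 it ended without either siRNA 9 array. Array medians ran from 6.78 to 6.87, and correlations between arrays, across probe sets, from 0.991 to 0.997. The first principal component held 32.5% of the variance. Its scores were 15.5 and 17.2 for siRNA 9 and 13.6 for negative array 2, and -11.8 to -5.57 for the remaining arrays. Epithelial markers were at their own means of 10.37 (CLDN4) to 13.05 (KRT8), all 8 of 8 measured. Fibroblast markers ran from 4.38 (DCN) to 9.77 (LUM). Leukocyte and endothelial markers ran from 4.23 (PTPRC) to 11.53 (LYZ, which gastric epithelium also makes). Signal over background is not given, so a dim probe set cannot be told from an absent transcript.

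ASF1A was lowest with siRNA 7, intermediate with siRNA 9 and highest with negative siRNA. Its log2 level was 8.97 and 9.07 on the siRNA 7 arrays and 9.49 and 9.50 on the siRNA 9 arrays, against 9.64, 10.06, 9.88 and 9.83 on the negative arrays. No value of one group lay within the range of another. Against the negative mean the difference was -0.83 with siRNA 7, a level of 56.1%, and -0.36 with siRNA 9, a level of 78.1%. With both reagents as 1 condition it averaged 9.26 ± 0.28 with TRIM44 siRNA and 9.85 ± 0.17 with negative siRNA (SD, n = 4 each), a difference of -0.60. These are the values for which the gene was singled out. Over all probe sets tested, all TRIM44 siRNA arrays lay below all negative arrays for 1.26%. Both siRNA 7 arrays lay below all negative arrays for 7.99%, and both siRNA 9 arrays did for 9.23%. Both siRNA 7 arrays lay below both siRNA 9 arrays for 28.7%, so that step alone is common. The differences of the reagents share the same negative arrays and are therefore not independent of each other. The mean TRIM44 level was 55.8% of the negative level with siRNA 7 and 58.2% with siRNA 9. Between the reagents TRIM44 differed by -0.06 (interval of the limma fit -0.36 to 0.24), or by -0.27 to 0.15 with each array left out. Its siRNA 7 arrays were themselves apart, at 10.85 and 11.27. ASF1A had a difference of -0.48 between siRNA 7 and siRNA 9. Whether ASF1A follows the degree of TRIM44 depletion was not tested.

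**Figure D1:**
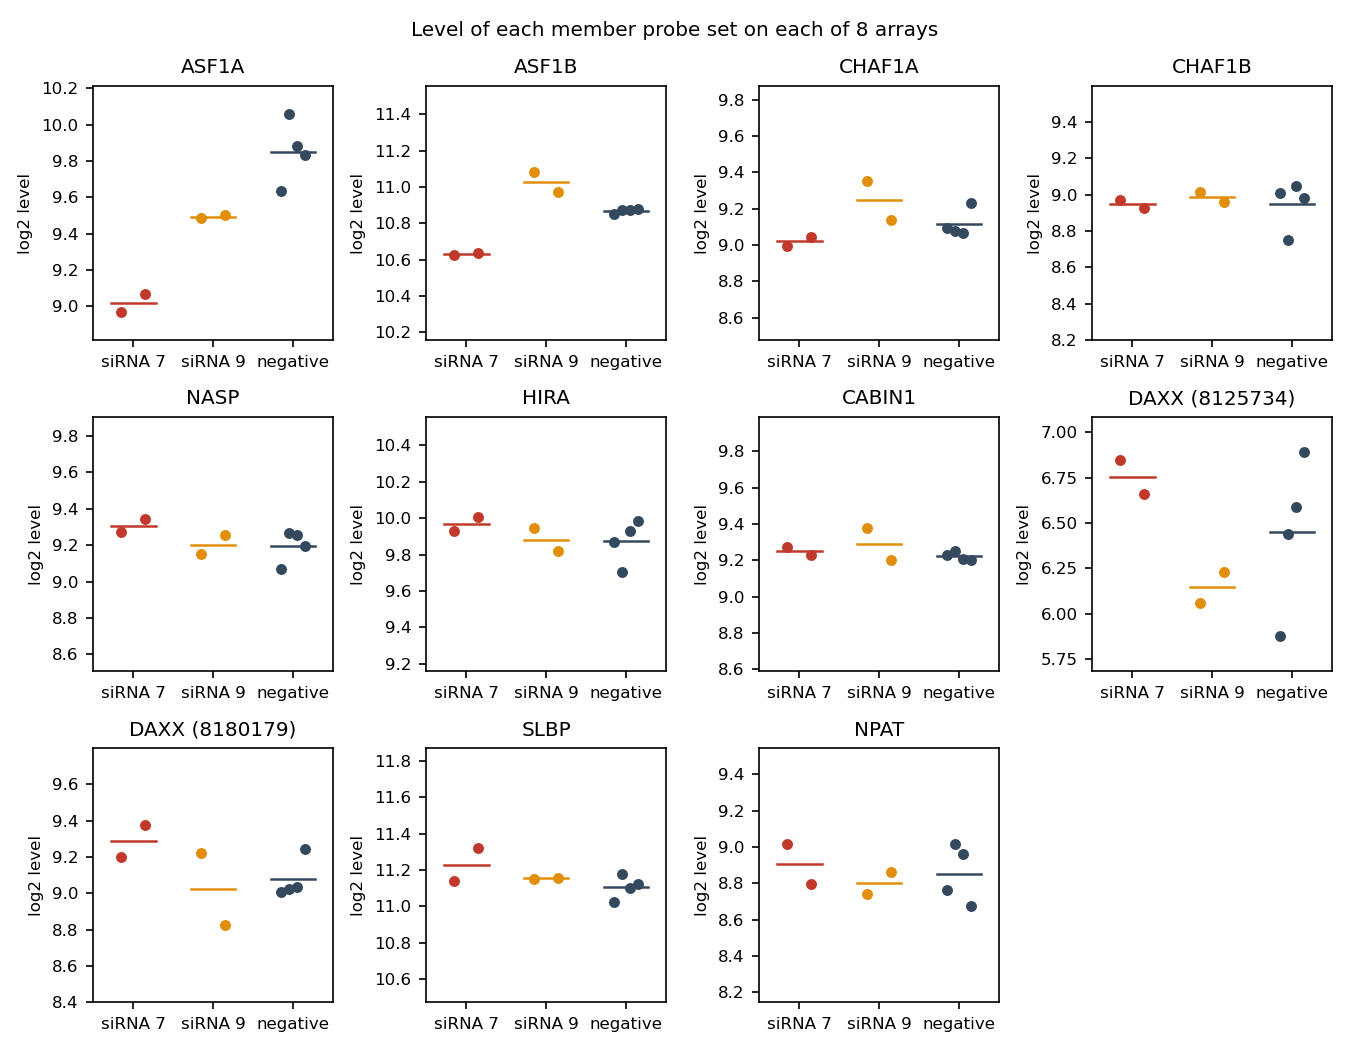
Log2 level (vertical axis) of each of the 11 member probe sets on each array, 1 panel per probe set, with siRNA 7, siRNA 9 and negative siRNA from left to right; points are arrays, lines are group means, and all panels span the same number of log2 units. ASF1A steps between 3 separate groups, ASF1B lies below the negative arrays with siRNA 7 and above them with siRNA 9, and the groups of CHAF1B, HIRA, SLBP and NPAT overlap.

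ASF1B, the paralog tied to cell proliferation, was lower with siRNA 7 than with siRNA 9, as was ASF1A. With siRNA 9, unlike ASF1A, it did not lie below the negative arrays. It stood at 10.63 and 10.64 with siRNA 7 and at 11.08 and 10.97 with siRNA 9, against 10.85, 10.87, 10.87 and 10.88 with negative siRNA. Both siRNA 7 arrays lay below the negative range and both siRNA 9 arrays lay above it, although neither difference passed the test. It was -0.24 with siRNA 7 (95% interval -0.42 to -0.05, limma adjusted p = 0.498) and 0.16 with siRNA 9 (95% interval -0.02 to 0.34, limma adjusted p = 0.449). The negative arrays were close together, with an SD of 0.011, while the fit, which draws each spread towards that of all probe sets, gave an SE of 0.084. The reagents differed by -0.40 (SE 0.10, 95% interval -0.61 to -0.18), with an adjusted p of 0.0583 in limma that just missed the threshold of 0.05. This difference holds no negative array, so leaving one out changes only the estimated spread and the adjusted p. Without negative array 2 the difference passed (adjusted p = 0.0308 in limma). It passed in 5 of 15 alternatives. Over the alternatives that kept 2 arrays of each reagent, adjusted p ran from 0.0117 to 0.128. With both reagents as 1 condition ASF1B stood at 10.83 ± 0.23 with TRIM44 siRNA and 10.87 ± 0.01 with negative siRNA (SD, n = 4 each), a difference of -0.04 (adjusted p = 0.9999).

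The distance between the paralogs was alike with both reagents. Each gene was set against its own negative mean on every array, and the ASF1B difference was taken from the ASF1A difference. The result was -0.64 and -0.55 on the siRNA 7 arrays and -0.58 and -0.45 on the siRNA 9 arrays, against -0.20, 0.20, 0.03 and -0.03 on the negative arrays. It averaged -0.60 ± 0.06 with siRNA 7 and -0.52 ± 0.09 with siRNA 9 (SD, n = 2 each), against an SD of 0.17 over the negative arrays. The reagent means lay 0.48 apart for ASF1A and 0.40 apart for ASF1B, both lower with siRNA 7, so this step largely cancels in their distance. Both siRNA 7 arrays lay below both siRNA 9 arrays for 28.7% of all probe sets, so a shared order is common. Whether the paralogs move together was not tested. ASF1A is part of this measure, so it carries no test.

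**Figure D2:**
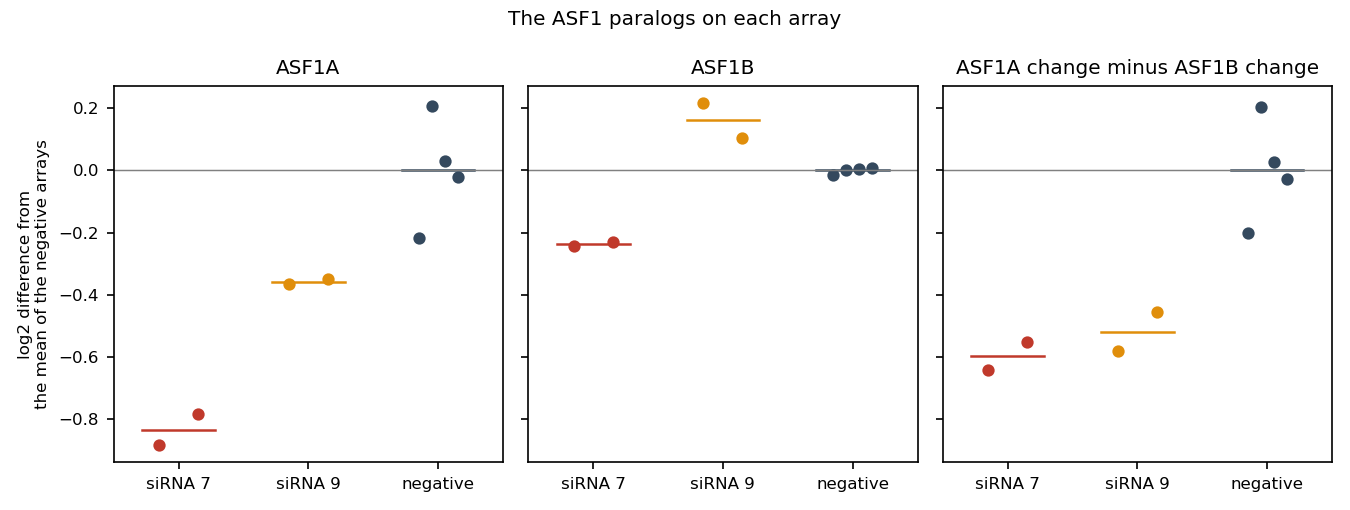
Log2 difference from the mean of the negative arrays (vertical axis) for ASF1A, ASF1B and the ASF1A change minus the ASF1B change, with siRNA 7, siRNA 9 and negative siRNA from left to right; points are arrays and lines are group means. The ASF1B means, -0.24 and 0.16, lie on opposite sides of 0, while the difference between the paralogs is -0.60 and -0.52 with the reagents.

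The CAF-1 subunits did not pass in any comparison. CHAF1A, the large subunit, stood at 8.99 and 9.05 with siRNA 7 and at 9.35 and 9.14 with siRNA 9, against 9.09, 9.08, 9.06 and 9.23 with negative siRNA. The siRNA 7 arrays lay just under the negative range, by a gap of 0.017, and the siRNA 9 arrays overlapped it. The differences were -0.10 with siRNA 7 (95% interval -0.31 to 0.12) and 0.13 with siRNA 9 (95% interval -0.08 to 0.34), with signs as for ASF1B. Between the reagents it was -0.23 (95% interval -0.47 to 0.02, limma adjusted p = 0.362). CHAF1B, the middle subunit, stood at 8.97 and 8.93 with siRNA 7 and at 9.02 and 8.96 with siRNA 9, against 9.01, 8.75, 9.05 and 8.98 with negative siRNA. Every siRNA array lay inside the negative range. Its differences were 0.00 with siRNA 7 (95% interval -0.22 to 0.22) and 0.04 with siRNA 9 (95% interval -0.18 to 0.26). The third CAF-1 subunit RBBP4, which many chromatin complexes share, had 0.08 with siRNA 7 and -0.01 with siRNA 9.

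NASP, which holds the soluble pool of H3 and H4, stood at 9.27 and 9.34 with siRNA 7 and at 9.15 and 9.25 with siRNA 9, against 9.07, 9.27, 9.26 and 9.19 with negative siRNA. The siRNA 7 arrays lay above the negative range by a gap of 0.00299, and the siRNA 9 arrays lay inside it. The differences were 0.11 (95% interval -0.09 to 0.32) with siRNA 7 and 0.01 (95% interval -0.20 to 0.21) with siRNA 9, and neither passed (limma adjusted p = 0.918 and 0.989).

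The genes of the replication-independent route gave no call either. HIRA, the scaffold of its complex, stood at 9.93 and 10.01 with siRNA 7 and at 9.94 and 9.82 with siRNA 9, against 9.87, 9.71, 9.93 and 9.98 with negative siRNA. The groups overlapped, with differences of 0.10 (95% interval -0.13 to 0.32) and 0.01 (95% interval -0.21 to 0.23). CABIN1, a subunit of that complex, stood at 9.27 and 9.23 with siRNA 7 and at 9.38 and 9.20 with siRNA 9, against 9.23, 9.25, 9.21 and 9.20 with negative siRNA. Its 8 values spanned 0.18, the narrowest range among the 11 probe sets, and the differences were 0.03 (95% interval -0.16 to 0.22) and 0.07 (95% interval -0.12 to 0.26). The ubinuclein genes, whose products complete the complex, had 0.04 (UBN1) and -0.08 (UBN2) with siRNA 7 and 0.14 (UBN1) and 0.02 (UBN2) with siRNA 9, and did not pass.

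For DAXX the 2 probe sets had the same order of group means but differed in level and spread. Against negative siRNA, probe set 8180179 had 0.21 with siRNA 7 and -0.05 with siRNA 9. Probe set 8125734 had 0.30 and -0.30. Probe set 8180179 stood at 9.20 and 9.37 with siRNA 7 and at 9.22 and 8.83 with siRNA 9, against 9.01, 9.02, 9.03 and 9.24 with negative siRNA. The siRNA 9 arrays lay 0.40 apart, wider than the difference between any of the group means. Probe set 8125734 stood at 6.85 and 6.66 with siRNA 7 and at 6.06 and 6.23 with siRNA 9, against 5.88, 6.44, 6.59 and 6.89 with negative siRNA. Both reagents overlapped the negative arrays, which spanned the whole range, and did not overlap each other. The reagents differed by 0.61 on this probe set (95% interval 0.08 to 1.13, limma adjusted p = 0.239) and by 0.26 on probe set 8180179 (95% interval -0.05 to 0.57, adjusted p = 0.417), so the direction was shared and neither passed. ATRX, the remodeller that works with DAXX, had -0.14 with siRNA 7 and 0.28 with siRNA 9 on the brighter of its 2 probe sets (adjusted p = 0.946 and 0.391), and -0.07 and 0.35 on the other, in both cases the opposite order of signs.

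SLBP and NPAT, which act on the clustered histone genes, did not pass in any comparison. SLBP stood at 11.14 and 11.32 with siRNA 7 and at 11.15 on both siRNA 9 arrays, against 11.02, 11.18, 11.10 and 11.12 with negative siRNA. The groups overlapped, and the differences were 0.12 (95% interval -0.08 to 0.33, limma adjusted p = 0.877) with siRNA 7 and 0.05 (95% interval -0.15 to 0.25, adjusted p = 0.895) with siRNA 9. NPAT stood at 9.02 and 8.79 with siRNA 7 and at 8.74 and 8.86 with siRNA 9, against 8.77, 9.01, 8.96 and 8.67 with negative siRNA. All groups overlapped, with 0.05 (95% interval -0.21 to 0.31) for siRNA 7 and -0.05 (95% interval -0.31 to 0.20) for siRNA 9. NPAT lies head to head with ATM, the DNA damage kinase gene, and a start site window of ATM shares 72 bases with that of NPAT. ATM had -0.03 with siRNA 7 and 0.26 with siRNA 9 (adjusted p = 0.998 and 0.472), a wider split than NPAT and also without a call.

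**Figure D3:**
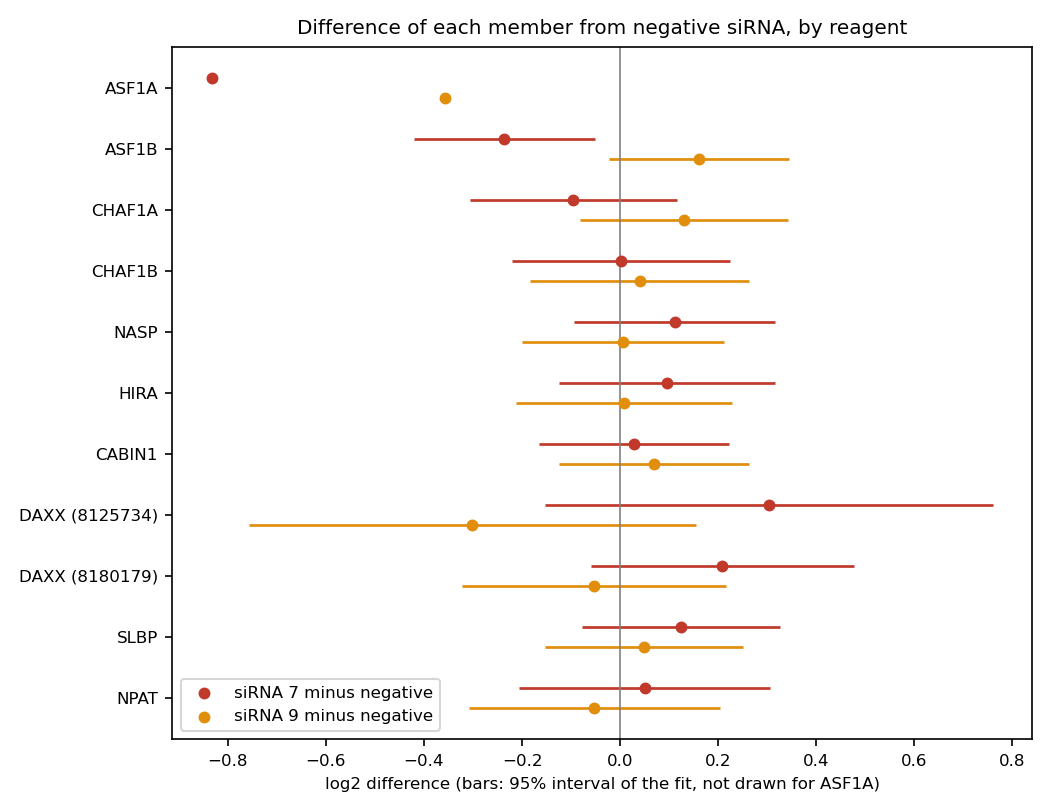
Log2 difference from negative siRNA (horizontal axis) for each member probe set, with siRNA 7 above siRNA 9 in each row; points are differences of means and bars 95% intervals of the limma fit, not drawn for ASF1A. For siRNA 7 the ASF1B bar ends at -0.05, and every other bar drawn crosses 0.

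Without ASF1A, 0 of 10 member probe sets passed in any of the 4 comparisons. Of all probe sets tested, limma called 0.00522% with both reagents as 1 condition, 0.0679% with siRNA 7, 0.924% with siRNA 9 and 2.23% between the reagents, so a list of 10 with no call is near the background. At an unadjusted p under 0.05 there were 0, 1, 0 and 2 of the 10 in the same order, namely ASF1B for siRNA 7, and ASF1B and DAXX probe set 8125734 between the reagents. Of all probe sets, 5.43%, 7.46%, 13.6% and 15.7% had such a p in these comparisons, so the counts of the 10 are near the background. Both siRNA 7 arrays lay below all negative arrays for 2 of the 10, ASF1B and CHAF1A, beside 7.99% of all probe sets, and above them for 1, NASP, beside 6.38%. With siRNA 9 both arrays exceeded every negative array for 1, ASF1B, beside 13.4%, and were under them for 0, beside 9.23%. Both siRNA 7 arrays lay above both siRNA 9 arrays for 2, NASP and DAXX probe set 8125734, beside 19.9%, and below them for 2, ASF1B and CHAF1A, beside 28.7%. With both reagents as 1 condition, 0 of the 10 were apart from the negative arrays, beside 1.59% higher and the 1.26% lower given above. The median difference of the 10 was 0.07 with siRNA 7 and 0.02 with siRNA 9, beside -0.00 and 0.02 over all probe sets. With each array left out in turn the medians of the 10 ran from 0.05 to 0.10 with siRNA 7 and from 0.01 to 0.07 with siRNA 9. The intervals bound the differences that these arrays could have missed. For either reagent against negative siRNA the intervals reached 0.76 in size for DAXX probe set 8125734 and at most 0.48 for the other 9 probe sets.

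Further histone chaperones and their partners gave no call. All 27 listed genes were measured, on 31 probe sets, and 0 passed in any of the 4 comparisons, with 1, 1, 5 and 8 at an unadjusted p under 0.05 in limma for both reagents, siRNA 7, siRNA 9 and the difference between them, beside the 5.43%, 7.46%, 13.6% and 15.7% of all probe sets. Their median difference was 0.00 with siRNA 7 (-0.03 to 0.03 with each array left out) and 0.02 with siRNA 9 (-0.01 to 0.03). Among the regulators of ASF1, CDAN1, which keeps ASF1 in the cytoplasm, had -0.10 with siRNA 7 and 0.03 with siRNA 9. The kinase genes TLK1 and TLK2, whose products phosphorylate ASF1, had -0.02 and 0.12 with siRNA 7 and 0.10 and -0.04 with siRNA 9. MCM2, the helicase subunit that binds H3 and H4 at the fork, had -0.08 with siRNA 7 and -0.15 with siRNA 9. None of these 4 passed, with adjusted p of 0.579 to 0.998.

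Factors that transcribe or process histone messenger RNA gave no call either, for 18 of 20 listed genes measured (2, 2, 4 and 5 at an unadjusted p under 0.05, in the same order of comparisons and beside the same shares of all probe sets). Their median difference was 0.04 with siRNA 7 (-0.00 to 0.07 with each array left out) and 0.14 with siRNA 9 (0.10 to 0.17), where 15 of 18 lay above 0, beside 56.5% of all probe sets. After quantile normalization or median centring 13 of 18 did. LSM11, of the U7 particle that cuts histone transcripts, had 0.11 with siRNA 7 and -0.15 with siRNA 9. HINFP, which activates histone H4 genes, had 0.14 and 0.05, and CASP8AP2, which works with NPAT in histone locus bodies, had 0.06 and 0.27. CASP8AP2 did not pass with siRNA 9 (adjusted p = 0.385 in limma). In 1 of 16 alternatives it did, when negative array 2 was left out (0.37, adjusted p = 0.0428). That array, at 8.36, held the highest CASP8AP2 value, above the siRNA 9 arrays at 8.34 and 8.31.

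The clustered histone genes, which SLBP and NPAT serve, stood lower with siRNA 9 in most cases while SLBP had 0.05 and NPAT -0.05 with that reagent. Of 56 measured, 48 had a negative difference with siRNA 9, with a median of -0.16, and 36 with siRNA 7, with a median of -0.04. Of all probe sets, 43.5% lay below 0 with siRNA 9 and 50.7% with siRNA 7. With siRNA 9 the median stayed between -0.19 and -0.15 with each array left out. With siRNA 7 it was -0.01 without siRNA 7 array 2 or negative array 1, -0.03 without negative array 2, and -0.02 after median centring, where 30 of 56 lay below 0. With siRNA 9 both arrays lay below all negative arrays for 30 of 56, beside the 9.23% given above. H2AC4 fell by 0.72 (limma adjusted p = 0.00927) and H1-5, a linker histone gene, fell by 0.62 (adjusted p = 0.0157), while 0 of 56 passed with siRNA 7. At an unadjusted p under 0.05 in limma there were 25 of 56 with siRNA 9, beside 13.6% of all probe sets, and 3 of 56 with siRNA 7, beside 7.46%. Both calls ended without either siRNA 9 array, and that of H1-5 also without negative array 3. Clustered histone genes are near-identical in sequence, so a probe set may read several of them. Of 9 histone variant genes expressed outside S phase or in most cells, 0 passed in any comparison (0, 0, 0 and 2 at an unadjusted p under 0.05, the 2 beside 15.7% of all probe sets). Their median was 0.04 with siRNA 7 (0.04 to 0.07 with each array left out) and -0.02 with siRNA 9 (-0.04 to -0.01).

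Genes of S phase and DNA replication were measured beside them, since histone supply and ASF1B follow the cell cycle. Of 25 measured, 1 passed with siRNA 9 and between the reagents, where 0.924% and 2.23% of all probe sets did. This was GINS1, a subunit of the replicative helicase. It stood at 10.24 and 10.39 with siRNA 7 and at 9.43 and 9.65 with siRNA 9, against 10.19, 10.43, 10.34 and 10.46 with negative siRNA. It fell by 0.81 with siRNA 9 (adjusted p = 0.00751 in limma), a call that ended without either siRNA 9 array. The list medians were -0.05 with siRNA 7, where 19 of 25 lay below 0, and 0.02 with siRNA 9, where 12 of 25 did, beside 50.7% and 43.5% of all probe sets. The siRNA 7 median was -0.01 with 14 of 25 below 0 without siRNA 7 array 1, and -0.03 with 16 of 25 below 0 without negative array 2 or after median centring. The siRNA 9 median ran from 0.00 without negative array 1 to 0.05 without siRNA 9 array 2. At an unadjusted p under 0.05 in limma there were 1, 1, 6 and 7 of 25, in the same order of comparisons as above. Of all probe sets, 5.43%, 7.46%, 13.6% and 15.7% had such a p. With siRNA 9, 7 of 25 were apart from the negative arrays upward, beside 13.4%, and 4 downward, beside 9.23%. With siRNA 7 these counts were 0 and 4, beside 6.38% and 7.99%. Whether this list has a part in the ASF1B values was not tested.

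**Figure D4:**
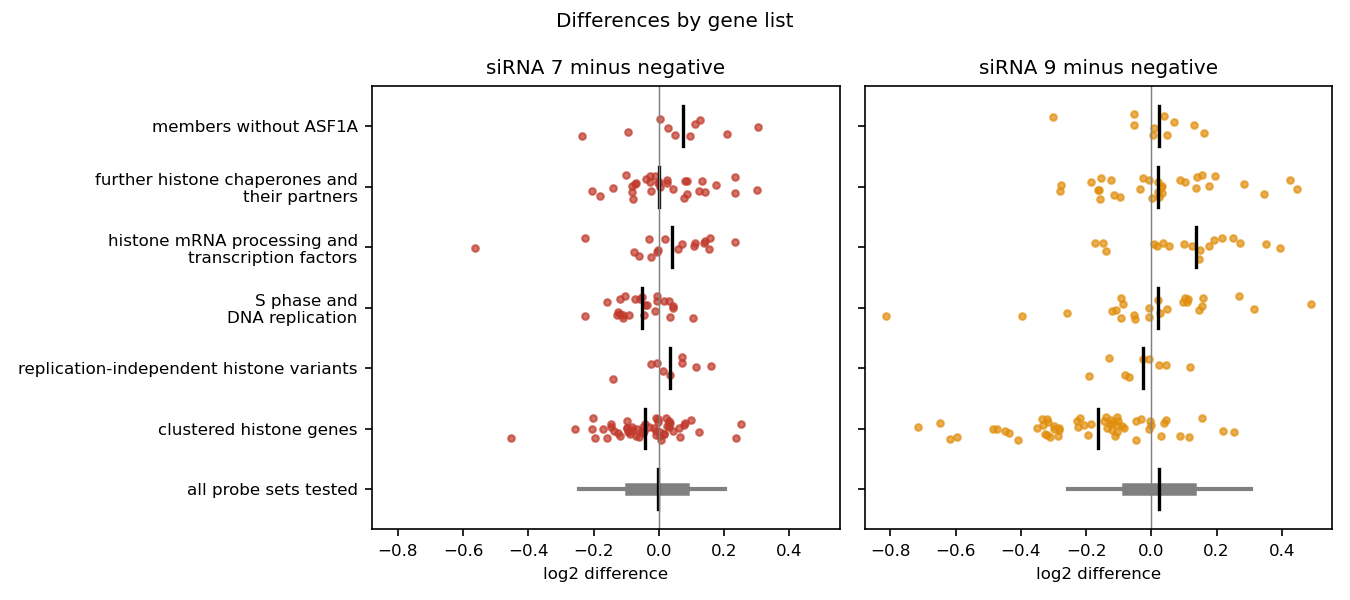
Log2 difference from negative siRNA (horizontal axis) of every probe set in each list, with siRNA 7 in the left panel and siRNA 9 in the right; points are probe sets, black marks are medians, and the grey bar for all probe sets tested spans the 25th to the 75th percentile (thick) and the 5th to the 95th (thin). With siRNA 9 the clustered histone genes have a median of -0.16, and the members other than ASF1A have 0.02.

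The genes whose pattern over the 8 arrays was nearest to that of ASF1A were CYP2S1, FBXO28, PGGT1B, ECHDC1 and HECTD3. Nearness was the root mean square difference between log2 levels, each centred on its own mean, and was 0.09 for CYP2S1, 0.12 for FBXO28, 0.13 for PGGT1B, 0.13 for ECHDC1 and 0.15 for HECTD3. CYP2S1, a cytochrome P450 gene, stood at 9.99 and 9.91 with siRNA 7 and at 10.28 and 10.26 with siRNA 9, against 10.57, 10.78, 10.67 and 10.68 with negative siRNA, the same 3 steps as ASF1A. For HECTD3, a ubiquitin ligase gene, the siRNA 9 arrays at 9.64 and 9.55 overlapped the negative arrays, and only the siRNA 7 arrays at 8.82 and 9.09 lay apart. No member was among these genes. They were found by their likeness to a gene that was itself chosen for its pattern, so no test is given.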

How the data were processed

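RNA of HSC39 cells was hybridised to 8 Affymetrix whole-transcript arrays. The table that the authors deposited holds log2 levels of 32321 probe sets on each array, and the submitters' processing notes name limma. Values of the same rank differed between arrays by at most 0.18 over all probe sets and by at most 0.33 over those tested. The background correction, summarization, build and filters were not given in the sources used here.

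Genes were named from the platform annotation, with the gene IDs of 19128 probe sets found in the RefSeq table of GRCh38.p14 and 0 symbols changed. The 19158 probe sets with 1 symbol were tested without further normalization or filter; 1388 with several symbols and 11775 with none were left out. TRIM44 siRNA was set against negative siRNA in a 2-group limma fit. The reagents were set against negative siRNA and against each other in a fit of 3 group means over all 8 arrays. All tests are 2-sided, and Benjamini-Hochberg adjustment ran over 19158 probe sets, with a threshold of 0.05; intervals and standard errors (SE) are those of the fit.

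The members and the gene lists were chosen with earlier results of these data known. Genes outside the members were named if they were TRIM44, passed in a list (at most 5 per list and comparison, by size), belonged to 12 listed partners, or were among the 5 nearest to ASF1A. Alternatives were the replicate number as a block, array weights, a trended and robust prior, median centring, quantile normalization, all probe sets, the upper 50% of them, only the arrays compared, the mean of both reagents from 3 group means, leaving out each array, and, added after seeing the data, siRNA identity as a random block. The fits were also run on simulated data with the same shift for both reagents. That run held no true difference between the reagents, and its outcome is not used here. The number of arrays limits the precision. Fits used limma 3.58.1 with statmod 1.5.0 in R 4.3.3.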

Additional observations from a re-analysis of the deposited data

Results flagged for a closer look

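DAXX probe set 8180179 had 1 negative array, array 4 at 9.24, far from the other negative arrays at 9.01 to 9.03; the gap was 0.885 of the range of the group, above the 95% critical value of Dixon's test for 4 samples. It was the only one of the 11 member probe sets examined in this way, and chance gives such a gap in about 1 in 20 groups.

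In the gene lists, 3 genes differed between the reagents by a test of that difference in limma, beside 2.23% of all probe sets. Genes chosen by their likeness to ASF1A are not counted here. GINS1 had 0.77 for siRNA 7 minus siRNA 9 (adjusted p = 0.0142), H2AC4 had 0.54 (adjusted p = 0.0387) and H1-5 had 0.62 (adjusted p = 0.0198). The GINS1 call ended without siRNA 7 array 2 or either siRNA 9 array, that of H1-5 without any of the 4 siRNA arrays, and that of H2AC4 without negative array 1 or 3 or any of the 4 siRNA arrays.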

How the results depend on the processing

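The count of members called, ASF1A left out, was 0 for both reagents, for siRNA 7 and for siRNA 9 against negative siRNA as reported and under every alternative run. Between the reagents it was 0, and it was 1, always ASF1B, after quantile normalization, with the upper 50% of probe sets, with the trended and robust prior, and with array weights (adjusted p = 0.0340, 0.0211, 0.0117 and 0.0256). With each array left out in turn it was 0 to 1, the 1 being without negative array 2. The cause was not tested. The ASF1B difference between reagents was -0.45 to -0.34 over all alternatives. ASF1A had -0.91 to -0.76 with siRNA 7, -0.43 to -0.29 with siRNA 9 and -0.68 to -0.50 with both together. Of 700 recomputed member differences, 669 moved by less than 1 SD within groups, 26 moved by more and 5 gained a call. Some of them could not move. A change of the prior or of the probe sets tested, or a left-out array outside the comparison, keeps the difference. ASF1A is among the 700 and was not tested, so it could gain no call. Same-numbered arrays were not treated as paired, since the labels do not say that a number marks a shared batch. Correlations of their deviations were all positive, from 0.0244 to 0.306. Those of differently numbered arrays ran from -0.306 to 0.162. The 2 arrays of a reagent have opposite deviations, so these pairs are not independent. With the replicate block the members called were 0 in each of the 4 comparisons (ASF1B between reagents, adjusted p = 0.0885). With all probe sets tested, the calls of GINS1, H2AC4 and H1-5 with siRNA 9 ended (adjusted p = 0.0571, 0.0687 and 0.0821), as did those between the reagents (0.0698, 0.120 and 0.0851), and TRIM44 did not pass with siRNA 7 (0.262) or siRNA 9 (0.0857). The TRIM44 call with siRNA 7 also ended with median centring (0.0642), the replicate block (0.152) and only the arrays compared (0.117). DAXX probe set 8125734 was not among the upper 50% of probe sets, and signal over background is not given.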
